A study of Chlamydomonas reinhardtii with 9 samples.

Results

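A group of 9 low-CO2 genes was followed in 3 strains of the unicellular green alga Chlamydomonas reinhardtii. It holds inorganic carbon transporters, bestrophins and other low-CO2 genes: LCI1, HLA3, CCP1, CCP2, BST1, BST2, BST3, LCI9 and LCI15. The 9 genes were chosen by their symbols as genes known to be switched on when CO2 is low, and all were found among the 17609 gene models of the deposited table. All 9 passed the minimum level for testing, a mean of at least 1 FPKM (fragments per kilobase of transcript, scaled to the size of the library) over the 9 libraries, as did 11360 gene models in all. The data were polyA RNA-seq libraries of 3 cultures each of strain B6 (genotype CEHC1 WT, here the wild type), strain B6-F (genotype cehc1-1 mutant, here the mutant) and strain B6-F_resc (genotype CEHC1 rescued, here the rescued strain), which is the mutant transformed with wild-type CEHC1. Every culture grew aerobically in TAP, a medium that contains acetate, in days of 14 h light followed by 10 h dark, 200 ml to a flask of 2800 ml. They were sampled 6 h into the light, and no other treatment was given. Each genotype is represented by 1 strain, so differences between these strains other than in CEHC1 were not separated from its effect.

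Green algae live in water where CO2 is scarce and diffuses slowly, and Chlamydomonas answers with a carbon concentrating mechanism. Transporters and channels at the plasma membrane, the chloroplast envelope and the thylakoids carry bicarbonate inward. Carbonic anhydrases convert it to CO2 next to Rubisco, which is packed into the pyrenoid of the chloroplast. The regulator CIA5 (also called CCM1) and the Myb factor LCR1 are known to act upstream of many of these genes, and LCR1 is known to be needed for full expression of LCI1 and of the carbonic anhydrase gene CAH1. The FPKM sums of the libraries differed between strains, from 970073 to 1108532 in the wild type, 592929 to 645234 in the mutant and 888153 to 1002223 in the rescued strain. Across the tested genes the mutant was lower at abundant genes. The median difference between mutant and wild type was 0.04 for genes with a mean of 1 to 10 FPKM, -0.42 at 10 to 100 FPKM and -0.73 at 100 to 1000 FPKM, on the log2(FPKM + 1) scale used for every difference here. Each library averaged over all cells of a culture, so less RNA in each cell and fewer cells that express a gene cannot be told apart. CEHC1 itself (Cre01.g005900_4532) averaged 8.64 ± 1.41 FPKM in wild-type cultures, 17.2 ± 0.967 in mutant cultures and 26.5 ± 1.31 in rescued cultures (SD, n = 3). This does not test the labels, since they do not describe the lesion.

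LCI1 and BST1 stood apart from the other 7 genes. In the mutant, LCI1 was nearly lost and BST1 fell to 22.1% of its wild-type level, and both rose again in the rescued strain. BST3, CCP1, LCI15, BST2, CCP2 and LCI9 were lower in the mutant by smaller amounts that did not reach the minimum difference, and for CCP2, BST2, LCI9 and LCI15 the direction turned when libraries were rescaled to equal FPKM sums. HLA3 was not lower. Counting a call as an adjusted p under 0.05 with an absolute difference of at least 1 (limma, Benjamini-Hochberg over the 11360 genes), 2 of the 9 genes were called lower in the mutant, LCI1 and BST1, against 4.8% of all tested genes. None was called higher, against 4.6%, and calls in either direction made up 9.4% of all tested genes. By adjusted p alone, 8 of the 9 were lower, against 40.5% of all tested genes. In 8 of the 9 every mutant library was below every wild-type library, as in 43.5% of all tested genes, and below the rescued libraries too, as in 31.1%. HLA3 was the reverse, with every mutant library above the wild type, as in 28% of all tested genes. The 9 genes had a median difference of -0.70, and all tested genes had one of -0.13.

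**Figure D1:**
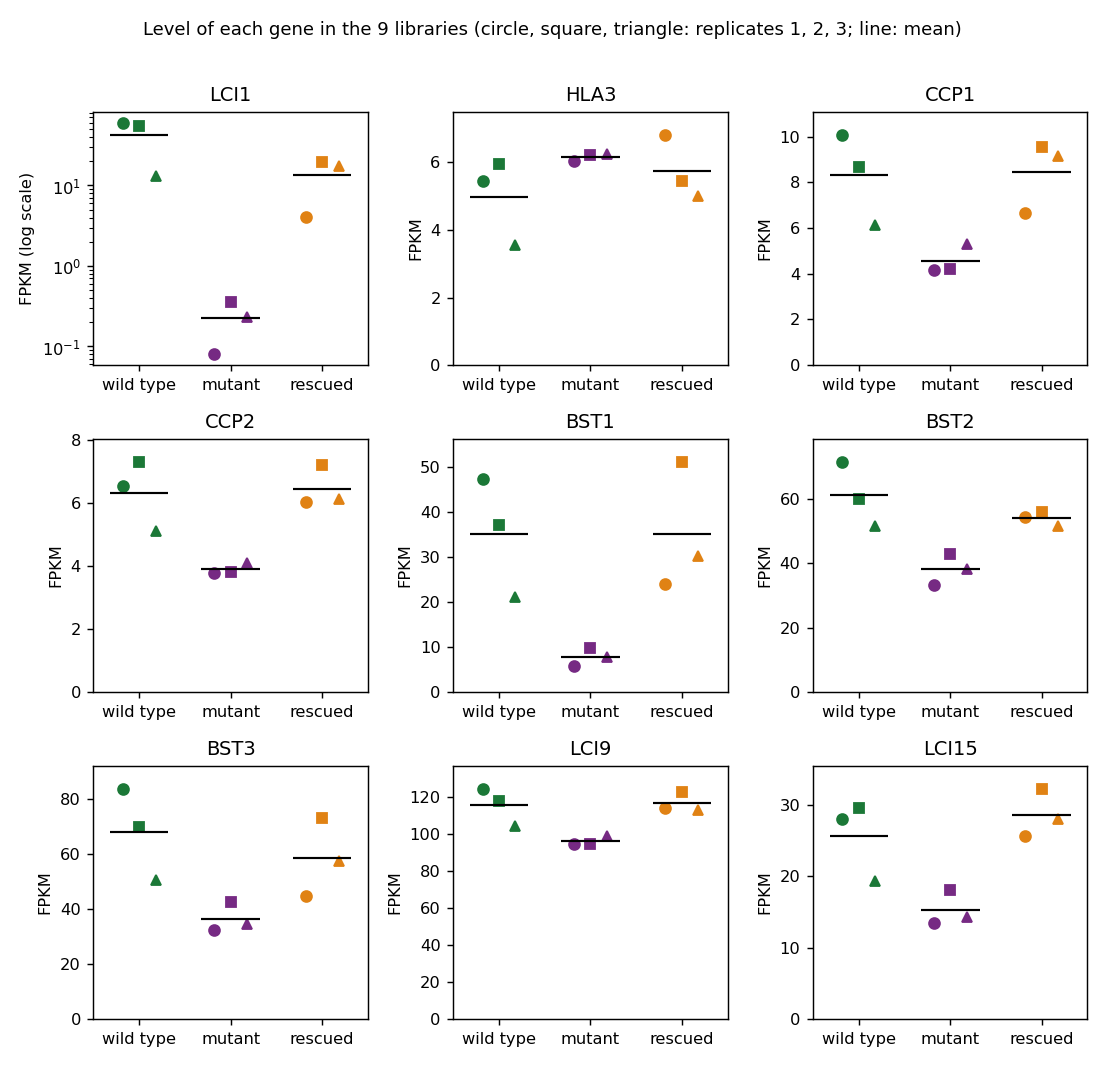
FPKM as deposited of the 9 genes in every library, 1 panel per gene, with the 3 strains on the x axis, a symbol for each replicate and a line at the strain mean (the LCI1 axis is logarithmic, the others start at 0). The mutant libraries lie below all wild-type and rescued libraries in every panel except that of HLA3, where they reach 6.03 to 6.26 FPKM and lie above the wild type.

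LCI1 (Cre03.g162800_4532) encodes a plasma membrane protein that takes part in inorganic carbon uptake. It had 59.3, 54.5 and 13.3 FPKM in wild-type replicates 1 to 3, 0.0816, 0.356 and 0.231 in mutant replicates 1 to 3 and 4.05, 19.6 and 17.3 in rescued replicates 1 to 3. The mutant libraries lay far below all others, while wild-type replicate 3 lay among the rescued libraries. The ratio of mean FPKM was 190 between wild type and mutant. In limma the mutant stood 4.90 below, a difference of -4.90 with an SE of 0.59 (adjusted p 4.9e-05). It was the lowest difference among the 3083 genes with a mean of 10 to 100 FPKM, of which 7.46% were called lower. Its size depends on the pseudocount, since the mutant level is below 1 FPKM, and was -6.87 with 0.1 and -2.98 with 5. The rescued strain exceeded the mutant by 3.35 (SE 0.59, adjusted p 0.00077), which returned 68.3% of the fall on the log2 scale. This share was 41.9%, 83.2% and 79.8% for rescued replicates 1, 2 and 3. The share depends on the pseudocount as well, since the rise was 5.22 with 0.1 and 1.71 with 5.

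The return of LCI1 was incomplete in the mean and uncertain in the test. The rescued strain reached 32.2% of the wild-type mean FPKM, and its difference from the wild type was -1.55 (95% confidence interval -2.86 to -0.24, adjusted p 0.058), which missed the threshold. Without wild-type replicate 3 the difference became -2.22 (adjusted p 0.0095) and without rescued replicate 2 it became -1.92 (adjusted p 0.040), both past the threshold. Without rescued replicate 1 it was -0.90 (adjusted p 0.193). Single libraries thus decided whether this difference passed.

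HLA3 (Cre02.g097800_4532), an ABC transporter of the plasma membrane known to import bicarbonate, did not follow LCI1. Its level was 5.46, 5.95 and 3.54 FPKM in wild-type replicates 1 to 3, 6.03, 6.22 and 6.26 in mutant replicates 1 to 3 and 6.82, 5.44 and 5.01 in rescued replicates 1 to 3. All 3 mutant libraries were above the wild-type libraries, by a margin smaller than the spread within the wild type, and the rescued libraries overlapped both. Mutant and wild type differed by 0.28 (95% confidence interval -0.05 to 0.62, adjusted p 0.120), and rescued strain and mutant by -0.09 (-0.43 to 0.24, adjusted p 0.613). Without wild-type replicate 3 the first difference was 0.10 (adjusted p 0.470), and without wild-type replicate 2 it was 0.40 (adjusted p 0.044). The lower end of the first interval is far from the differences of LCI1 and BST1. Rescaling all libraries to equal FPKM sums, an alternative chosen after the data were seen, gave 0.93 (adjusted p 0.00094). Rescaling by median ratios over the tested genes gave 0.41 (adjusted p 0.041). With median ratios over all genes above 0, also chosen after the data were seen, HLA3 was not higher by adjusted p.

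CCP1 (Cre04.g223300_4532) and CCP2 (Cre04.g222750_4532) are closely related members of the mitochondrial carrier family, and the assignment of reads that both genes share is not described in the labels. CCP1 had 10.1, 8.66 and 6.15 FPKM in wild-type replicates 1 to 3, 4.15, 4.23 and 5.31 in mutant replicates 1 to 3 and 6.65, 9.56 and 9.15 in rescued replicates 1 to 3. CCP2 had 6.53, 7.31 and 5.11 FPKM in wild-type replicates 1 to 3, 3.79, 3.81 and 4.10 in mutant replicates 1 to 3 and 6.03, 7.19 and 6.13 in rescued replicates 1 to 3. For both genes every mutant library was below every library of the other strains. Their levels in the mutant were 55.0% and 61.7% of the wild-type mean FPKM.

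The differences between mutant and wild type were -0.72 for CCP1 (SE 0.17, adjusted p 0.0035) and -0.57 for CCP2 (SE 0.11, adjusted p 0.0012). The rescued strain exceeded the mutant by 0.76 and 0.60, and it differed from the wild type by 0.03 for each gene, with adjusted p-values of 0.893 and 0.830. The median gene of their level range stood at 0.04. Of the 7607 genes with a mean of 1 to 10 FPKM, 3.94% were as low as CCP1 or lower and 7.61% as low as CCP2 or lower.

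In the gene order of reference assembly v5.5, used here for neighbours only, CCP1 lies next to LCIE and CCP2 next to LCID, a pair of genes of the LCIB family. LCIE (listed as LCIE1) was called lower in the mutant, with a difference of -1.22 (SE 0.12, adjusted p 1.4e-05). Its mean level was 3.53 FPKM for wild type, 0.943 for mutant and 2.67 for rescued cultures. LCID (listed as LCID1) had mean levels of 2.99, 2.18 and 4.37 FPKM in the same order. Its difference in the mutant, -0.33 (adjusted p 0.023), was too small for a call. At both pairs of neighbours, each gene was lower in the mutant, but after rescaling to equal FPKM sums LCID and CCP2 were no longer lower, with differences of 0.22 and 0.06, and CCP1 was at -0.08 (adjusted p 0.681).

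The bestrophins BST1, BST2 and BST3 are related channel-like proteins of the thylakoid membrane, known to be needed for bicarbonate supply to the thylakoid lumen. They are similar in sequence, and again the labels do not say how shared reads were assigned. BST1 (Cre16.g662600_4532) had 47.3, 37.2 and 21.1 FPKM in wild-type replicates 1 to 3, 5.76, 9.80 and 7.77 in mutant replicates 1 to 3 and 24.1, 51.3 and 30.3 in rescued replicates 1 to 3. The mutant libraries were all below the others, and the rescued libraries overlapped the wild-type libraries.

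BST1 differed between mutant and wild type by -1.998 (SE 0.32, adjusted p 0.00028), a ratio of 4.53 between the means. The rescued strain exceeded the mutant by 1.9996 (SE 0.32, adjusted p 0.00038), so that 100.1% of the fall was returned in the mean, with 77.1%, 130.1% and 93.0% in rescued replicates 1, 2 and 3. The rescued strain and the wild type had mean levels of 35.2 FPKM each, and the 95% confidence interval of their difference was -0.70 to 0.70. Of the 3083 genes with a mean of 10 to 100 FPKM, 16 were as low as BST1 or lower in the mutant, or 0.519%.

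BST2 (Cre16.g663400_4532) had 71.5, 60.02 and 51.6 FPKM in wild-type replicates 1 to 3, 33.2, 43.0 and 38.2 in mutant replicates 1 to 3 and 54.3, 55.9 and 51.7 in rescued replicates 1 to 3. BST3 (Cre16.g663450_4532), its direct neighbour in the reference gene order, had 83.9, 69.9 and 50.8, then 32.3, 42.5 and 34.5, then 44.9, 73.4 and 57.6 FPKM. Each mutant library was below all other libraries for both genes, by margins smaller than the spread within the wild type. The differences in the mutant were -0.66 for BST2 (SE 0.12, adjusted p 0.00076) and -0.87 for BST3 (SE 0.20, adjusted p 0.0033). In the same level range the median gene stood at -0.42, and 26.0% of genes were as low as BST2 or lower and 12.2% as low as BST3 or lower.

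In the rescued strain BST2 and BST3 were higher than in the mutant by 0.50 (adjusted p 0.0054) and 0.65 (adjusted p 0.018). They differed from the wild type by -0.16 and -0.21, with adjusted p-values of 0.310 and 0.426. BST3 passed the minimum for a call in the mutant when wild-type replicate 3 was left out (-1.06, adjusted p 0.0011). With equal FPKM sums BST2 was at 0.08 in the mutant and BST3 at -0.13, with adjusted p-values of 0.619 and 0.591, so the direction for BST2 depended on the scaling while the BST1 call was kept (-1.301, adjusted p 0.0036).

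LCI9 (Cre09.g394473_4532) encodes a pyrenoid protein found between the plates of the starch sheath. It was the most abundant of the 9 genes in every strain, with 124, 118 and 104 FPKM in wild-type replicates 1 to 3, 94.4, 94.5 and 98.9 in mutant replicates 1 to 3 and 114, 123 and 113 in rescued replicates 1 to 3. The mutant libraries lay below the others without overlap, but close to them. The difference of -0.26 (SE 0.08, adjusted p 0.013) was smaller in size than the median of -0.73 at its level range, where 87.9% of genes were as low or lower. Its direction in the mutant turned with scaling, to 0.36 after quantile normalization (adjusted p 0.0049) and 0.49 with equal FPKM sums (adjusted p 0.0007).

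LCI15 (Cre16.g685050_4532), a low-CO2 inducible gene, had 28.02, 29.5 and 19.4 FPKM in wild-type replicates 1 to 3, 13.5, 18.1 and 14.3 in mutant replicates 1 to 3 and 25.7, 32.3 and 28.04 in rescued replicates 1 to 3. The highest mutant library was just below the lowest wild-type library. It was lower in the mutant by -0.70 (SE 0.16, adjusted p 0.0029), with 22.6% of genes of its level range as low or lower. The rescued strain exceeded the mutant by 0.87 (adjusted p 0.0010). With equal FPKM sums the difference in the mutant was 0.02 (adjusted p 0.917).

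**Figure D2:**
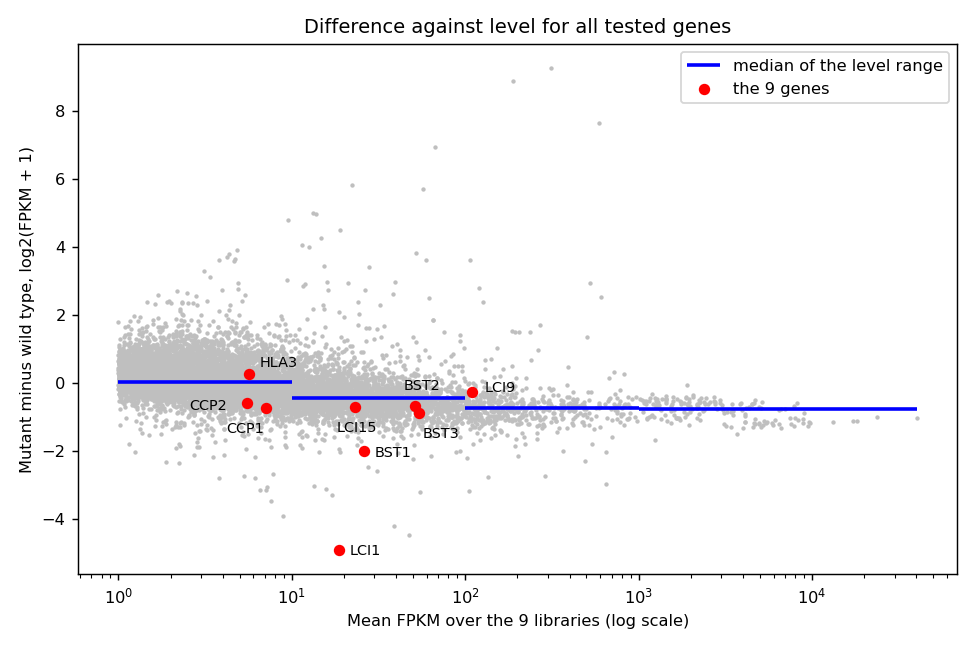
Difference between mutant and wild type on the log2(FPKM + 1) scale (y axis) against mean FPKM over the 9 libraries (x axis, logarithmic), with 1 grey point for each of 11360 tested genes, blue lines at the median of each level range and red points for the 9 genes. LCI1 at -4.90 and BST1 at -1.998 lie at or beyond the lower edge of the cloud, and BST2 (-0.66), LCI15 (-0.70) and BST3 (-0.87) lie within it, below the median of -0.42.

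The order of the falls was LCI1, BST1, BST3, CCP1, LCI15, BST2, CCP2 and LCI9, followed by HLA3, which had a positive difference. The 95% confidence interval of LCI1 (-6.21 to -3.59) did not overlap that of BST1 (-2.6997 to -1.297). The interval of BST1 overlapped only slightly with that of BST3 (-1.32 to -0.42). From BST3 to LCI9 each gene's interval overlapped that of its neighbour. Differences between genes were not tested, so the order among these 6 genes is a description only.

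In the rescued strain against the mutant, LCI1 and BST1 were again the 2 genes called, both higher, against 5.41% of all tested genes called higher. By adjusted p alone 8 of the 9 genes were higher as deposited, against 33.1%, and the same 8 had every rescued library above every mutant library, against 37.2%. HLA3 was the exception in both. The order of the rises was LCI1, BST1, LCI15, CCP1, BST3, CCP2, BST2 and LCI9, and only the step between BST1 (1.298 to 2.701) and LCI15 (0.52 to 1.22) was free of overlap. This comparison shares the mutant libraries with the first, so the agreement of the lists is not a separate result. Between rescued strain and wild type none of the 9 genes was called with limma, against 2.31% of all tested genes, and none had an adjusted p under 0.05, against 40.3%. LCI1 was the 1 gene of the 9 with an unadjusted p under 0.05 (0.0245).

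**Figure D3:**
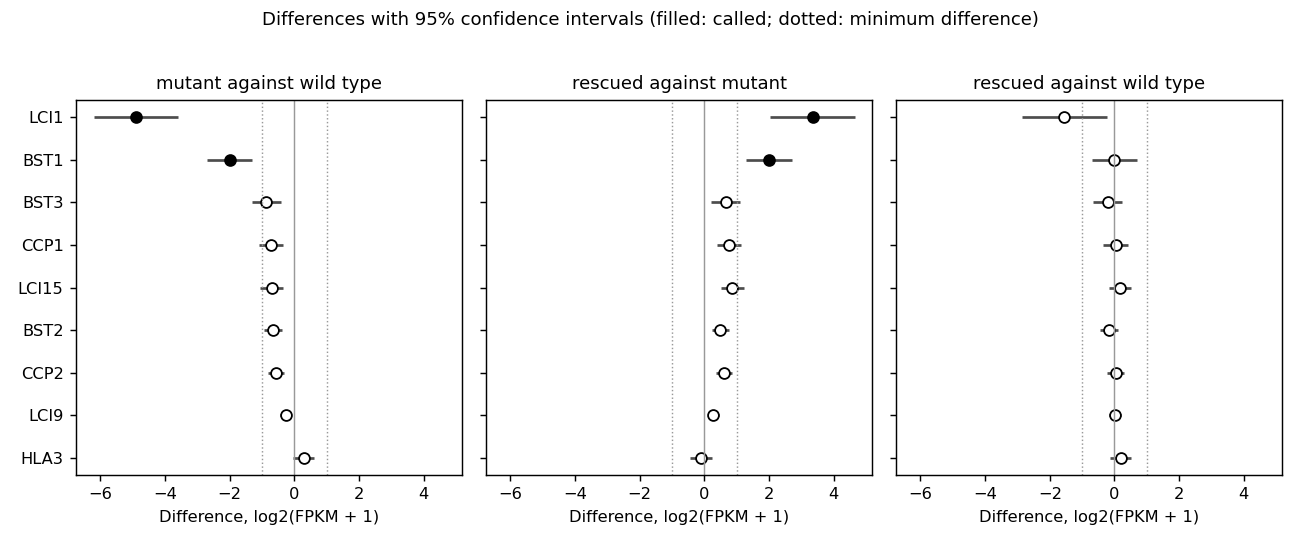
Differences of the 9 genes in the 3 comparisons on the log2(FPKM + 1) scale (x axis), ordered by the fall in the mutant, with bars for 95% confidence intervals, filled points for called differences and dotted lines at the minimum difference of 1. LCI1 and BST1 are the filled points of the first 2 panels, and in the panel of rescued strain and wild type only the interval of LCI1, -2.86 to -0.24, leaves out 0.

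The levels of these genes also varied between cultures of one strain. The SD within strains, pooled over the 3 strains on the log2 scale, was 0.94 for LCI1 and 0.50 for BST1, against a median of 0.12 over all tested genes. Only 0.141% of tested genes varied as much as LCI1 or more, and 1.00% as much as BST1 or more. It was 0.31 for BST3, 0.26 for CCP1, 0.24 for LCI15, 0.22 for HLA3, 0.17 for BST2, 0.15 for CCP2 and 0.09 for LCI9. LCI9 alone varied less than the median gene.

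The same libraries were low or high for many of the 9 genes, a pattern described after the values were seen. Wild-type replicate 3 was the lowest wild-type library for 9 of the 9 genes, whereas it was the lowest for 32.2% of all tested genes. Rescued replicate 1 was the lowest rescued library for 6 of the 9, against 42% of all genes, and mutant replicate 2 was the highest mutant library for 5 of the 9, against 32.9%. All 3 held together for LCI1, BST1, BST3 and LCI15, and for 2.28% of all tested genes. Among the 48 other tested genes of the carbon concentrating mechanism and photorespiration lists, wild-type replicate 3 was the lowest for 19. All 3 held together for 8 of these 48, and for 3 of the 4 genes of the LCIB family among them. In HLA3 rescued replicate 1 was instead the highest rescued library. The labels give no batch.

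**Figure D4:**
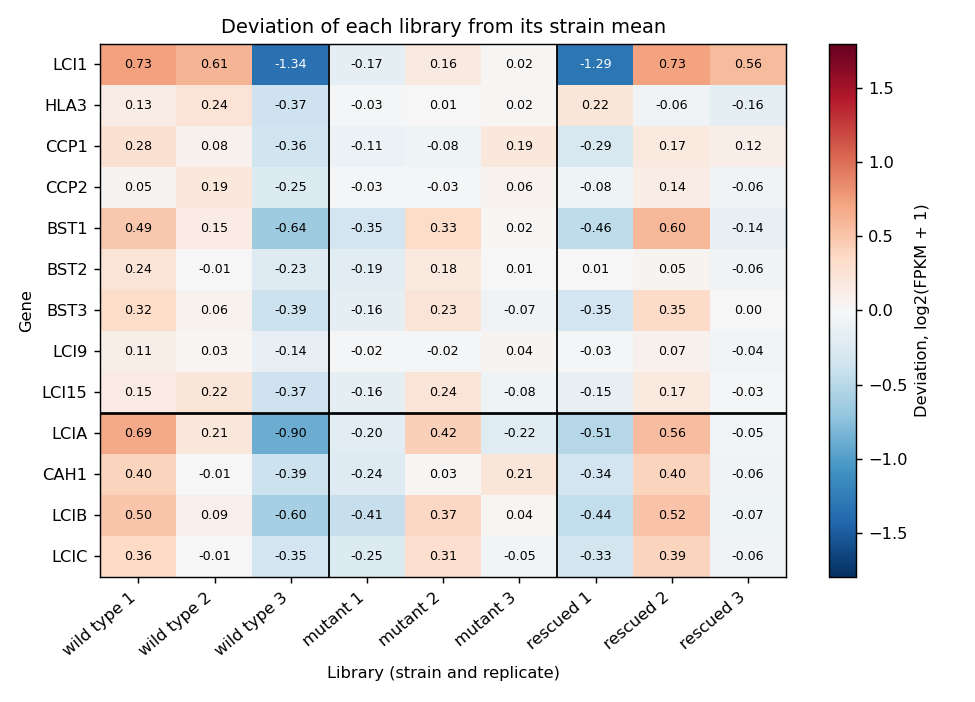
Deviation of each library from the mean of its strain on the log2(FPKM + 1) scale (colour and printed value) for the 9 genes and, below the thick line, for LCIA, CAH1, LCIB and LCIC, with libraries in columns. Wild-type replicate 3 is below its strain mean in every row shown, by 1.34 for LCI1 and 0.90 for LCIA, while it was the lowest wild-type library for only 19 of all 48 list genes.

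The genes whose profile over the 9 libraries was most like that of each called gene were named by a fixed rule, the smallest root mean square difference between profiles of log2(FPKM + 1), each centred on its own mean. Of the 11359 other tested genes, the one closest to BST1 was LCIC (listed as LCIC1), with a root mean square difference of 0.17. Cre04.g215900_4532, a gene model without a symbol, followed with 0.20, and LCIB (listed as LCIB1) with 0.21. LCIA, the chloroplast envelope anion channel listed as NAR1B, took place 4. LCIB and LCIC form a complex around the pyrenoid that is known to recapture leaking CO2.

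LCIC had 515 ± 127 FPKM for wild type, 127 ± 25.8 for mutant and 458 ± 120 for rescued cultures, and LCIB had 348 ± 126, 110 ± 29.5 and 325 ± 112 FPKM (SD, n = 3). Both were an order of magnitude more abundant than BST1. Their differences in the mutant, -1.996 for LCIC (SE 0.22) and -1.62 for LCIB (SE 0.31), lay within the confidence interval of BST1. They were picked for profiles close to that of BST1 in these same libraries, so this is not a separate result. BST2 and BST3, related to BST1 by sequence, were in places 1059 and 415 of the same ranking. The profiles were centred but not scaled, so these places also reflect their smaller falls of -0.66 and -0.87.

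LCI1 had no neighbour as close, but its larger fall and its wider spread within strains also enter this unscaled measure. The nearest profiles were those of MSD3, a superoxide dismutase gene, with a root mean square difference of 0.77, and of Cre01.g011630_4532, a gene model without a symbol, with 0.82. CAH1 took place 4 with 0.99, between further models without a symbol at 0.86 and 1.03. BST1 took place 17, LCIA place 18 and LCIC place 19.

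**Figure D5:**
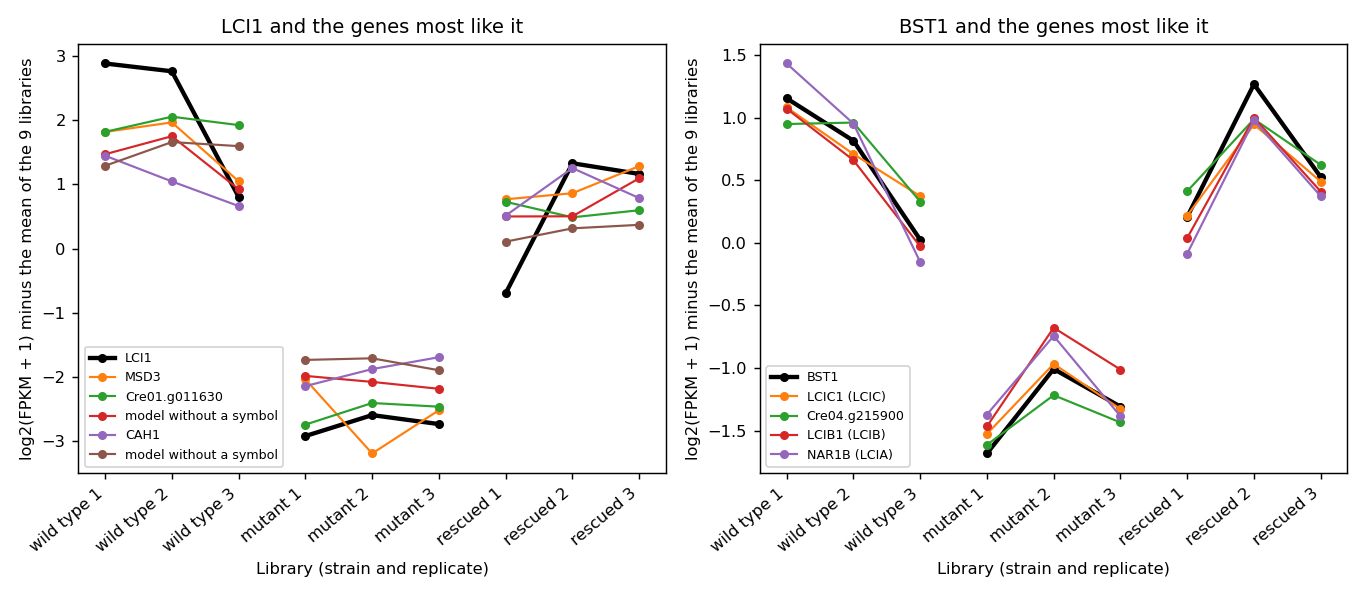
Profiles of LCI1 (left) and BST1 (right), in black, with the genes most like each in colour: log2(FPKM + 1) minus the mean of the 9 libraries (y axis) by library (x axis), where lines only join the points of one gene within a strain and replicates have no order. LCIC, LCIB and LCIA follow BST1 through the replicates of each strain, with root mean square differences of 0.17 and 0.21 for LCIC and LCIB.

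Other genes of the carbon concentrating mechanism, photorespiration genes and other genes with an LCI symbol were taken from lists chosen with earlier results of these data known. Of 53 genes matched by symbol, 48 were tested, and 10 were called lower and 3 higher in the mutant. Over all tested genes 4.8% were called lower and 4.6% higher. In the LCIB family 3 of 4 were called lower, LCIB, LCIC and LCIE. In the NAR1 family 1 of 4 tested genes was called lower, LCIA. It had 26.4, 18.6 and 8.13 FPKM in wild-type replicates 1 to 3, 2.92, 5.06 and 2.89 in mutant replicates 1 to 3 and 8.56, 19.0 and 12.1 in rescued replicates 1 to 3. The wild-type and rescued libraries of LCIA overlapped, and its difference in the mutant was -1.91 (SE 0.38, adjusted p 0.0012). LCIA is known to act with HLA3 in moving bicarbonate to the chloroplast. HLA3 was not lower in the mutant, with a difference of 0.28 (adjusted p 0.120), and the difference between the 2 genes was not tested.

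Of 8 carbonic anhydrase genes tested, CAH1 and CAH3 were called lower, against 4.8% of all tested genes, and CAH7 and CAH8 higher, against 4.6%. CAH1, the periplasmic enzyme, had 1247, 945 and 724 FPKM in wild-type replicates 1 to 3, 103, 124 and 141 in mutant replicates 1 to 3 and 653, 1091 and 789 in rescued replicates 1 to 3, and a difference of -2.96 (SE 0.22, adjusted p 3.6e-06) in the mutant. CAH3, the enzyme of the thylakoid lumen, differed by -1.34 (adjusted p 6.9e-06). CAH4 and CAH5, the mitochondrial enzymes, had differences of -0.54 (adjusted p 0.0037) and -0.94 (adjusted p 1.2e-05), too small for a call.

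The regulators did not move in one direction. CIA5, listed as CCM1, had 5.15, 6.15 and 4.39 FPKM in wild-type replicates 1 to 3, 9.74, 9.13 and 10.3 in mutant replicates 1 to 3 and 11.9, 9.07 and 9.31 in rescued replicates 1 to 3. Its wild-type libraries were the lowest of all, and mutant and rescued libraries overlapped. The difference was 0.79 in the mutant (SE 0.12, adjusted p 0.00023) and 0.83 in the rescued strain against the wild type (adjusted p 0.00075), both below the minimum. Transcript values do not show the level of the CIA5 protein.

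LCR1 had 6.94, 6.72 and 5.00 FPKM in wild-type replicates 1 to 3, 1.98, 2.35 and 3.27 in mutant replicates 1 to 3 and 4.39, 4.21 and 4.59 in rescued replicates 1 to 3, in 3 groups that did not overlap. It was called lower in the mutant by -1.04 (SE 0.14, adjusted p 0.00010), just past the minimum, and the call was lost when wild-type replicate 1, wild-type replicate 2 or mutant replicate 1 was left out, with differences of -0.96, -0.98 and -0.92. It was also lost with median-ratio rescaling over the tested genes (-0.92), but not over all genes above 0. With equal FPKM sums it was -0.45 (adjusted p 0.023). The rescued strain exceeded the mutant by 0.63 (adjusted p 0.0033) and differed from the wild type by -0.41 (adjusted p 0.040). The calcium-binding thylakoid protein gene CAS1 was the other regulator called lower.

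Among 14 other tested genes with an LCI symbol, LCI20 and LCI28 were called lower and LCI35 higher, although LCI28 was not called without mutant replicate 3 (-0.84), with differences of -1.29 for LCI20 (SE 0.11) and 1.42 for LCI35 (SE 0.12). None of 3 pyrenoid genes and none of 12 photorespiration genes tested was called in the mutant with limma, and 1 and 10 of them had an adjusted p under 0.05, against 66.2% of all tested genes. The median difference was -0.48 for the photorespiration genes and -0.41 for the other LCI symbols. None of these list genes had a difference as low as that of LCI1. With equal FPKM sums many of the photorespiration genes turned sign, to values from 0.0016 to 0.54. Many of the other LCI symbols did so too, with values from 0.18 to 0.46. Fewer turned with quantile normalization, where the highest such values were 0.33 and 0.40. The falls in these 2 lists therefore depended on the scaling.

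Scaling bears on the smaller differences. As deposited, 523 genes passed as higher and 545 as lower in the mutant. Rescaling by median ratios over the tested genes gave 675 and 337, quantile normalization 495 and 235, and equal FPKM sums 2041 and 76. The median difference of all tested genes moved from -0.13 to -0.01, -0.06 and 0.48. LCI1 stayed at -4.82, -4.88 and -4.55 and BST1 at -1.87, -1.73 and -1.301, and both remained called in each case. The number of the 9 genes lower by adjusted p alone went from 8 to 7, 4 and 2. The share of all tested genes, 40.5%, is given as deposited only, so this drop cannot be read as particular to the 9 genes. For rescued strain against mutant, the number higher by adjusted p alone went from 8 to 7, 5 and 2, and with equal FPKM sums HLA3 and LCI9 were lower (-0.65 and -0.36). Here too the share of all tested genes, 33.1%, is given as deposited only. Of the 13 calls among the 48 list genes, equal FPKM sums ended 7, those of LCIB (-0.87), LCIE (-0.76), CAH3 (-0.61), LCI20 (-0.58), CAS1 (-0.45), LCR1 (-0.45) and LCI28 (-0.44), and made 5 others called higher, CIA5 (1.46) among them. Quantile normalization ended 2, those of CAH3 (-0.94) and CAS1 (-0.59). Median ratios over the tested genes ended 2, those of LCR1 (-0.92) and LCI28 (-0.92). Median ratios over all genes above 0 ended 0 of these calls. That variant gave 526 genes higher and 529 lower in the mutant, with a median difference of -0.12. It left 8 of the 9 genes lower by adjusted p alone. A pseudocount of 5 ended 5, those of LCR1 (-0.57), LCI28 (-0.57), LCIE (-0.52), LCI35 (0.92) and CAH7 (0.91).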

How the data were processed

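The authors deposited FPKM for each of 9 libraries and 1 FPKM value per strain. Per the submitters' processing notes STAR 2.7.10b and Cuffdiff 2.0.2 were used. The sources used here state neither their settings nor the genome build in words. The deposited gene identifiers end in _4532 followed by a version suffix later than v5.5, the assembly used here for neighbours only. Per the labels' protocols, reads were paired-end of 125 bp. Gene symbols came from the table. All results are from the values per library, and the authors' strain values lay within 0.064% of the replicate means for the 9 genes. The number of fragments per library is unknown: in the lowest FPKM values the most frequent ratio to wild-type replicate 1 held 6.70% to 24.0% of genes, too few to recover depth. No interval for counting error was therefore made.

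FPKM are not counts, so log2(FPKM + 1) was fitted by limma 3.58.1 in R 4.3.3, with group means over all 9 libraries, moderation that follows the mean level, and p-values adjusted over the 11360 genes whose mean reached 1 FPKM. The procedure was checked on simulated data. Figures were drawn with matplotlib 3.10.9. The members, the lists and the genes named were chosen with earlier results of these data known. The genes named outside the 9 were a fixed group of 10, the list genes of largest difference, and the nearest profiles. LCI28 and CAS1 were added with their values known. The alternatives were other pseudocounts (0.1 and 5), minimum levels (none and 5 FPKM), scalings and moderation, the groups alone, a replicate block, no minimum difference, and each library left out. Equal FPKM sums, and median ratios over all genes above 0, were added after seeing the data. A planned motif search and protein comparison were not run, as sequences were not used here.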

Additional observations from a re-analysis of the deposited data

How the results depend on the processing

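LCI1 and BST1 kept their calls in both comparisons with the mutant under every alternative run. Leaving out 1 library gave 2 to 3 of the 9 genes called for mutant against wild type (BST3 joined without wild-type replicate 3) and 0 to 1 for rescued strain against the wild type. Of the 11360 tested genes, 980 to 1204 and 260 to 294 were then called in these comparisons. With no minimum difference, 8 of the 9 were called in the first comparison (mutant, wild type), against 66.2% of all tested genes. In the second (rescued strain, mutant) 8 were called, against 58.1%. Counts over all genes moved more. For mutant against wild type they were 1068 as reported, 1758 and 433 with pseudocounts of 0.1 and 5, 631 with a minimum mean of 5 FPKM, 2117 with equal FPKM sums and 7525 with no minimum difference. For rescued strain against mutant they were 1043 as reported, 550 with a pseudocount of 5, 1729 with equal sums and 6595 with no minimum. For rescued strain against wild type they were 262, then 606 and 75 with the pseudocounts, 154 with a minimum mean of 5 FPKM and 4577 with no minimum.

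Signs turned with equal FPKM sums for CCP2 (0.060), BST2 (0.081), LCI9 (0.49), LCI15 (0.022), CAH4 (0.17) and LCID (0.22) in the mutant, and turned for BST2 (-0.13) and LCI9 (-0.36) in the rescued strain against the mutant. Quantile normalization turned LCI9 to 0.36 and -0.21 in these comparisons. Many further list genes turned in the mutant with equal FPKM sums, and some with quantile normalization. Equal sums raise the mutant libraries by construction; the cause under quantile normalization was not tested. Against the wild type, differences of the rescued strain near 0 changed sign. BST1 went to -0.00019 with a pseudocount of 5, and leaving out 1 library gave -0.32 to 0.25 for BST1, -0.14 to 0.18 for CCP1, -0.089 to 0.13 for CCP2, -0.054 to 0.073 for LCI9 and -0.011 to 0.28 for LCI15.

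Replicate numbers are shared between the strains in the labels, but same-numbered libraries deviated together with an r of only -0.13 to 0.16 over tested genes, so the numbers were not taken to pair cultures. With the replicate block, 1068 genes and 2 of the 9 were called in the mutant. Depth limits the value of LCI1 in the mutant, since the number of fragments behind 0.0816 to 0.356 FPKM is unknown.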
